A study of Mus musculus with 18 samples.

Results

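The glycolysis and hypoxia response genes are 32 of the 55469 genes listed for ventral and lateral prostate lobes of male TRAMP mice. They were chosen by symbol as 4 carriers of glucose and lactate, 15 glycolytic enzymes, 3 regulators of glycolysis, 7 hypoxia targets and 3 genes of oxygen sensing. All 32 were found. Aldoa had 2 gene IDs, of which the one with the longer exon length was taken, and the other held 1.63 to 22.4 normalized counts per library.

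Every mouse carried 1 copy of TRAMP, a transgene in which the probasin promoter drives viral T antigens in prostate epithelium, on the strain given as C56NL/6N. WT-TRAMP mice (ELAC2+/+), KO-TRAMP mice (ELAC2-/-) and A537T-TRAMP mice (ELAC2A537T) were sampled at 10 and 30 weeks of age, with 3 libraries per line and age. KO-TRAMP mice lost an exon of Elac2 through the prostate-directed Pb-Cre driver, so that stroma, vessels and immune cells of the lobes kept the gene, whereas A537T was homozygous in the whole body. ELAC2 cuts the 3′ trailers off precursor tRNAs in the nucleus and in mitochondria, and the comparisons ask how its loss or change alters the tumour-prone prostate. No WT mice without TRAMP were analysed here.

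Glycolysis converts glucose to pyruvate, which is either oxidised in mitochondria or reduced to lactate and exported. Low oxygen stabilises the transcription factors HIF-1α and HIF-2α, because the prolyl hydroxylases that mark them for degradation need oxygen. The stabilised factors bind a short DNA core in front of many glycolytic genes. Normal prostate epithelium makes and secretes citrate, and tumours often raise glycolysis and lactate export.

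Values are the authors' normalized counts, which were compared only within the table of a line and an age because each table was scaled on its own. The column headers gave a library number only. Libraries 1 to 3 (10 weeks) and 10 to 12 (30 weeks) were WT-TRAMP, 4 to 6 and 13 to 15 were A537T-TRAMP, and 7 to 9 and 16 to 18 were KO-TRAMP. The WT-TRAMP libraries of an age served both lines. Depth was 9380174 to 14830104 recovered reads per library. Elac2 lay between 233 and 359 normalized counts in all 18 libraries and did not pass the test in any comparison. The count covers the whole gene and not the deleted exon alone, so it checked the KO label only weakly.

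Several libraries stood apart. Summed reads of 8 seminal vesicle genes ranged from 1.06 to 90508 RPM (reads scaled to the same total in every library), at 12468 or more in libraries 5, 6, 9, 10, 12, 13 and 15 and at 2656 or less in the others. Summed reads of 10 neuroendocrine genes were 1956 and 1215 RPM in KO-TRAMP libraries 17 and 18, compared with 26.7 in KO-TRAMP library 16 and 29.3 to 356 in WT-TRAMP at 30 weeks. Library 18 lay between libraries 16 and 17 in 96.2% of the 2870 genes with a mean of at least 100 reads that differed over 2-fold among these 3, at a median position of 0.397 on a scale from 0 at library 17 to 1 at library 16 (quartiles 0.329 and 0.464). Library 12 lay between libraries 10 and 11 in 90.4% of 666 such genes, and library 15 between 13 and 14 in 75.8% of 693. In the 10-week groups the corresponding highest shares were 63.7%, 46.1% and 74.1%. Whether libraries 12, 15 and 18 share RNA with the other libraries of their group was not tested, and the calls and medians of 30 weeks are therefore also given without them.

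The DNA in front of 6 members is shown because their values at 30 weeks are described below and because their windows hold the letters that HIF dimers recognise. The 6 were chosen after their values were seen, and binding by HIF was not measured. The 250 bases before a RefSeq start of each gene (build GRCm38.p6) are written 5′ to 3′ on the gene's strand, with capitals marking the letters ACGTG on either strand. The form with G as its first letter, GCGTG, was marked as well. A palindrome that reads the same on both strands holds a match on each, so matches can overlap. The windows are those of Slc16a1 (chr3:104638414-104638663, plus strand), Ldha (chr7:46845554-46845803, plus), Bnip3 (chr7:138909507-138909756, minus), Ankrd37 (chr8:45999851-46000100, minus), Slc16a3 (chr11:120948817-120949066, plus) and Pgk1 (chrX:106186850-106187099, plus).
Slc16a1: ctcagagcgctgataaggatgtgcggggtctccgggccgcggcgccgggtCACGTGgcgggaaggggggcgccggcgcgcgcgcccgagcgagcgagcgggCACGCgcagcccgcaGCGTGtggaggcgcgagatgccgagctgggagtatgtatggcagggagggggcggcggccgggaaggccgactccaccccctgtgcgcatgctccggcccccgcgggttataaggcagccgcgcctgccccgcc
Ldha: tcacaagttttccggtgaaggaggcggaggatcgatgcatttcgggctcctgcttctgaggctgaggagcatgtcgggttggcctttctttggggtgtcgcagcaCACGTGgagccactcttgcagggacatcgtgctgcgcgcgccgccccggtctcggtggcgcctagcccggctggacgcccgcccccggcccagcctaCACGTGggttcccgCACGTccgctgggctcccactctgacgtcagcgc
Bnip3: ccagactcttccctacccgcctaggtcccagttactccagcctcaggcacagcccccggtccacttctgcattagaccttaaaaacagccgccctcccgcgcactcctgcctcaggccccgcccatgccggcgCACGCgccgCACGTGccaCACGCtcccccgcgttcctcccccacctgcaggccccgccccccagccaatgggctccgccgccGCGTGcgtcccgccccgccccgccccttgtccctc
Ankrd37: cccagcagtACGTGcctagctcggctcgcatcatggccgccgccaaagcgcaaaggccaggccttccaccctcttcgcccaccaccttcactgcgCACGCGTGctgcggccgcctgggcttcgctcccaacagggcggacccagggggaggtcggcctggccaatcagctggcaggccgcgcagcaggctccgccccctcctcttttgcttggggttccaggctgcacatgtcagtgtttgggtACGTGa
Slc16a3: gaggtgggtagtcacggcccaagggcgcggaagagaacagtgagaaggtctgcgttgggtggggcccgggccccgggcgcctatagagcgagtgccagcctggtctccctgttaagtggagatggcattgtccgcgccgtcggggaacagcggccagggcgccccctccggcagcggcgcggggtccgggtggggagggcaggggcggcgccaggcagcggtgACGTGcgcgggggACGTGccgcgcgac
Pgk1: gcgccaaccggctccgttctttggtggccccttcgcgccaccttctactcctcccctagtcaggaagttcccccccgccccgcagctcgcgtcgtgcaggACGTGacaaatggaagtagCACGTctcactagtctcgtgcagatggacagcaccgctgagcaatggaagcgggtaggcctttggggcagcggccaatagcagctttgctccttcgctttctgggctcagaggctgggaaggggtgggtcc
Ldha and Bnip3 held 5 matches each, Slc16a1 and Ankrd37 4 each, and Slc16a3 and Pgk1 2 each. Ldha has a further start in the table, whose window (chr7:46846832-46847081) is not printed and held 1 match. Of 43 windows listed for 29 members, 35 (81.4%) held at least 1 match, compared with 12679 of 32851 windows of all genes (38.6%). At least 2 matches stood in 20 of the members' windows (46.5%) and in 16.7% of all windows. These genes were listed for their known part in glycolysis or in the response to oxygen. The shares therefore describe the list and are not a result of the mice. Epas1, Ndrg1 and Slc2a3 had no window in the table.

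Levels were compared between genes as RPKM, which is the RPM divided by the exon length in kilobases. In WT-TRAMP at 10 weeks Pkm, the pyruvate kinase gene, was highest at 78.9 ± 19.3 (SD, n = 3), followed by Aldoa (64.8 ± 10.3), Ldha (63.8 ± 16.1), Pgk1 (63.2 ± 13.4), Tpi1 (61.3 ± 12.5) and Pgam1 (53.4 ± 11.6). The library values of neighbours in this order overlapped. Gpi1, the glucose phosphate isomerase gene, followed at 31.9 ± 1.43. Hk2, the insulin-responsive hexokinase, stood at 25.1 ± 3.84 and its widely expressed relative Hk1 at 8.45 ± 0.419. The lactate carriers were near the bottom, with Slc16a1 (MCT1) at 0.392 ± 0.0672 and Slc16a3 (MCT4) at 0.253 ± 0.149. The lowest was Car9, the surface carbonic anhydrase induced by hypoxia, at 0.0757 ± 0.027. At 30 weeks Pkm (74.4 ± 5.25) and Aldoa (66.8 ± 13.1) again headed the list in WT-TRAMP. Such an order depends on the exon lengths. Without division by length, Gpi1 (206 RPM) lay above Aldoa (189 RPM) in WT-TRAMP at 10 weeks.

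The members also differed in how much they varied over the 18 libraries. Egln1, the main oxygen-sensing prolyl hydroxylase, stayed within 36.9 to 51.2 RPM, and Pfkfb4, a kinase that makes the activator of phosphofructokinase, within 34.6 to 55.4. Its relative Pfkfb3 ran from 5.55 to 1562. Slc16a3 ran from 0.656 to 57.9, Ldhb from 0.916 to 46.6, Slc16a1 from 1.31 to 46.7 and Pfkp from 8.44 to 175. These genes were singled out after their values were seen.

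**Figure D1:**
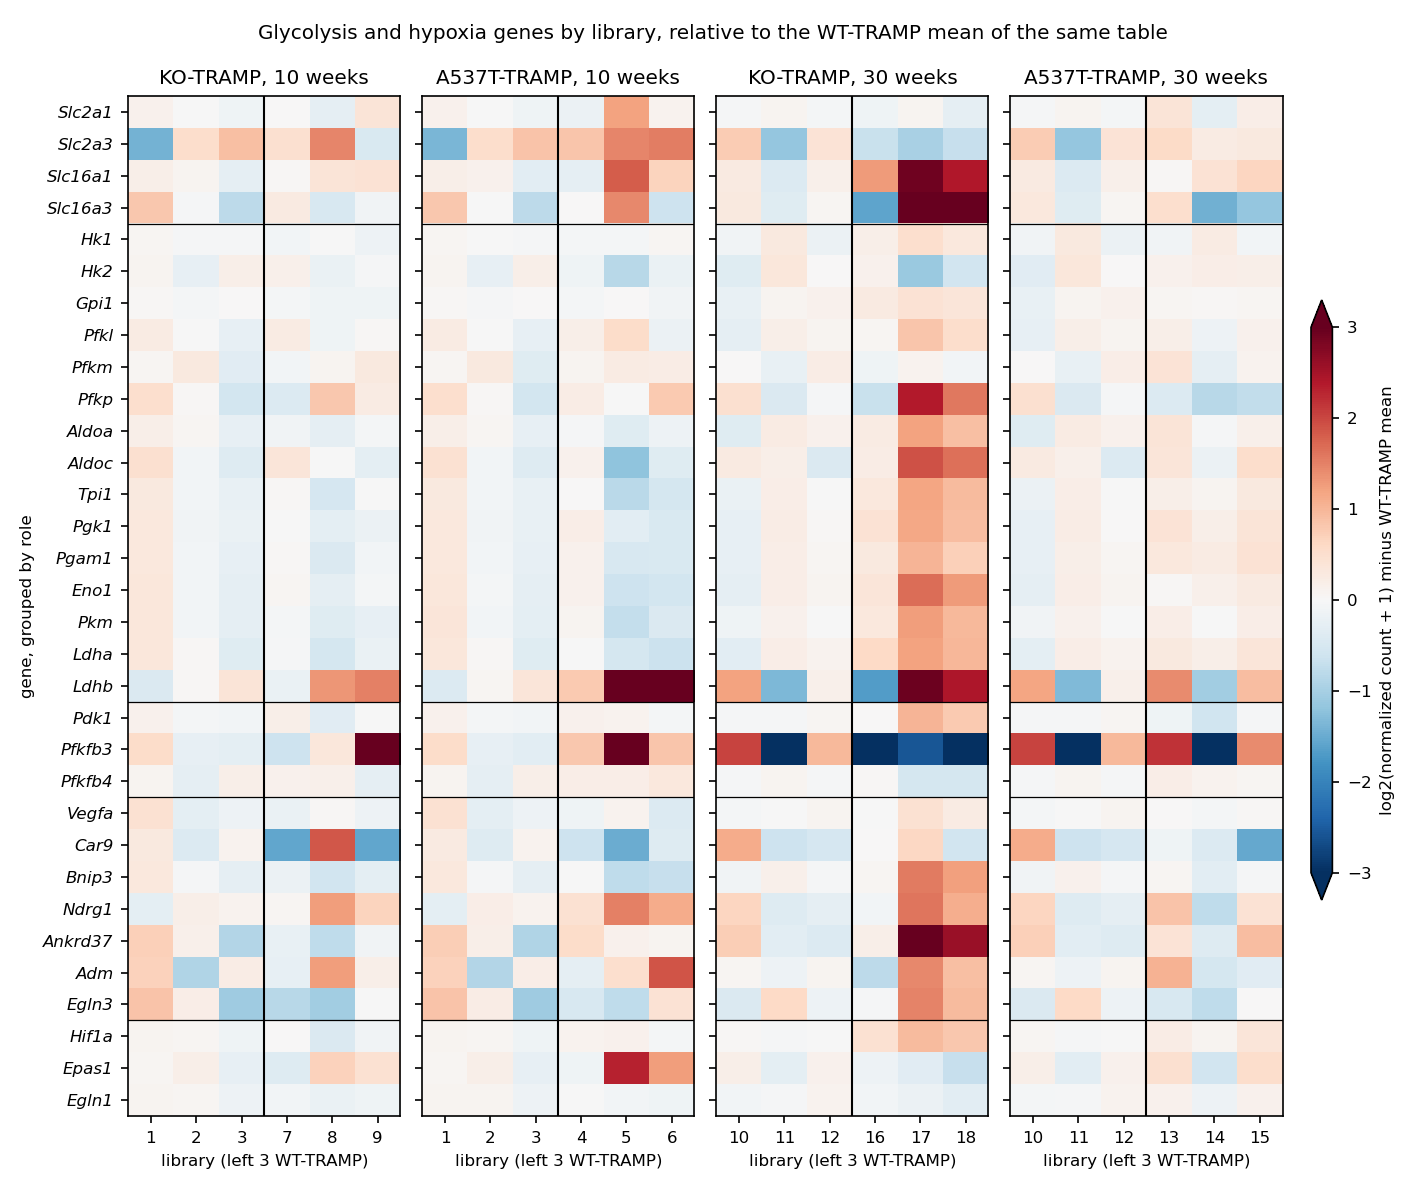
Heat map of log2(normalized count + 1) of the 32 members in each library, minus the WT-TRAMP mean of the same table, with the 3 WT-TRAMP libraries left of each line and the colour scale ending at ±3. Most members of KO-TRAMP libraries 17 and 18 are red while library 16 is pale, and the Pfkfb3 row changes colour from library to library, also within WT-TRAMP at 30 weeks.

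The comparison of KO-TRAMP with WT-TRAMP at 30 weeks held the most members out of the range of WT-TRAMP. Of the 31 members tested, 10 were higher in all 3 KO-TRAMP libraries than in any WT-TRAMP library, compared with 10.8% of all genes, and 1 was lower, compared with 9.48%. The median log2 fold change of the members was 0.73, against 0.01 over the 16900 genes tested. No member passed the adjusted threshold in limma (36 genes, 0.213%, did), although 13 members had an unadjusted p under 0.05, compared with 13.5% of all genes. edgeR called 0 members (0.0888% of genes) and DESeq2 8 (4.76%), of which 7 were higher. In such bulk tissue fewer cells of a type and less RNA per cell cannot be told apart.

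The 10 members without overlap were the lactate carrier gene Slc16a1, the enzyme genes Gpi1, Aldoa, Tpi1, Pgk1, Pgam1, Eno1, Pkm and Ldha, and Hif1a. Egln1, named after its values were seen, was the member that was lower without overlap, at 428 to 499 normalized counts in KO-TRAMP and 502 to 568 in WT-TRAMP. Glycolytic enzymes had a median log2 fold change of 0.82, hypoxia targets 0.83, carriers 0.88, regulators −0.34 and oxygen sensing genes −0.19. The 4 carriers were split, with the lactate carriers Slc16a1 and Slc16a3 above 0. The glucose carriers Slc2a1 and Slc2a3 lay below 0, with overlap between the groups, and the lowest value of the 4 was −0.78. Of the 15 enzymes 13 had a value above 0, the exceptions being Hk2 and Pfkm. All 6 hypoxia targets tested (Vegfa, Bnip3, Ndrg1, Ankrd37, Adm and Egln3) had values above 0, and each of them overlapped between the groups.

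Slc16a1 (ENSMUSG00000032902.1, chromosome 3, 104638668 to 104658462, plus strand, protein coding) encodes MCT1, which moves lactate and pyruvate with protons across the plasma membrane. Its normalized counts were 162, 504 and 351 in KO-TRAMP libraries 16, 17 and 18, and 79.4, 48.9 and 73.0 in WT-TRAMP libraries 10, 11 and 12. Every KO-TRAMP library lay above every WT-TRAMP library. The log2 fold change was 2.20 (SE 0.44, adjusted p = 0.200 by limma), which did not pass. It passed in DESeq2 (2.33, adjusted p = 0.000171) and in a fit over the 12 libraries of both ages with limma (adjusted p = 0.0295), in which 0.572% of genes passed.

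Hif1a (ENSMUSG00000021109.13, chromosome 12, 73901375 to 73947530, plus strand, protein coding) encodes the oxygen-regulated subunit of HIF-1. It had 1274, 1816 and 1628 normalized counts in KO-TRAMP libraries 16 to 18, and 965, 911 and 929 in WT-TRAMP libraries 10 to 12. The WT-TRAMP values were close together and all KO-TRAMP values lay above them. The log2 fold change was 0.73 (SE 0.15, adjusted p = 0.201 by limma). HIF-1α is controlled largely at the protein, which these data do not measure.

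Ldha (ENSMUSG00000063229.15, chromosome 7, 46841475 to 46855627, plus strand, protein coding), the lactate dehydrogenase subunit that favours lactate production, had 3298, 5015 and 4365 normalized counts in libraries 16 to 18. WT-TRAMP libraries 10 to 12 had 1762, 2495 and 2361. The groups did not overlap, and the log2 fold change was 0.93 (SE 0.21, adjusted p = 0.244 by limma). The heart-type subunit Ldhb, chosen here after its values were seen, had 19.5, 504 and 353 in KO-TRAMP and 150, 24.95 and 71.8 in WT-TRAMP, so that KO-TRAMP held both the lowest and the highest library.

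Pgk1, Eno1 and Pkm act in the lower part of the pathway, and Eno1 and Pkm were chosen after their values were seen. Pgk1 (phosphoglycerate kinase) had 2081, 3425 and 2940 normalized counts in KO-TRAMP and 1291, 1813 and 1570 in WT-TRAMP, a log2 fold change of 0.84 (SE 0.22, adjusted p = 0.304 by limma). Eno1 (enolase) had 2145, 5290 and 4035 in KO-TRAMP and 1374, 1920 and 1755 in WT-TRAMP. Pkm had 5336, 10188 and 8421 in KO-TRAMP and 3959, 4687 and 4294 in WT-TRAMP. In each of these genes library 16 lay above the highest WT-TRAMP library and library 17 was highest. Pgk1 shares 54.7% of its 31-base words with the retrogene Pgk1-rs7, Pgam1 37.1% with Pgam1-ps2 and Eno1 27.7% with Eno1b, so reads could be split between these copies and the values of Pgk1 are uncertain. Pkm shares 34.7% and Ldha 19.6% of such words with any other gene, so the limit holds for them too.

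**Figure D2:**
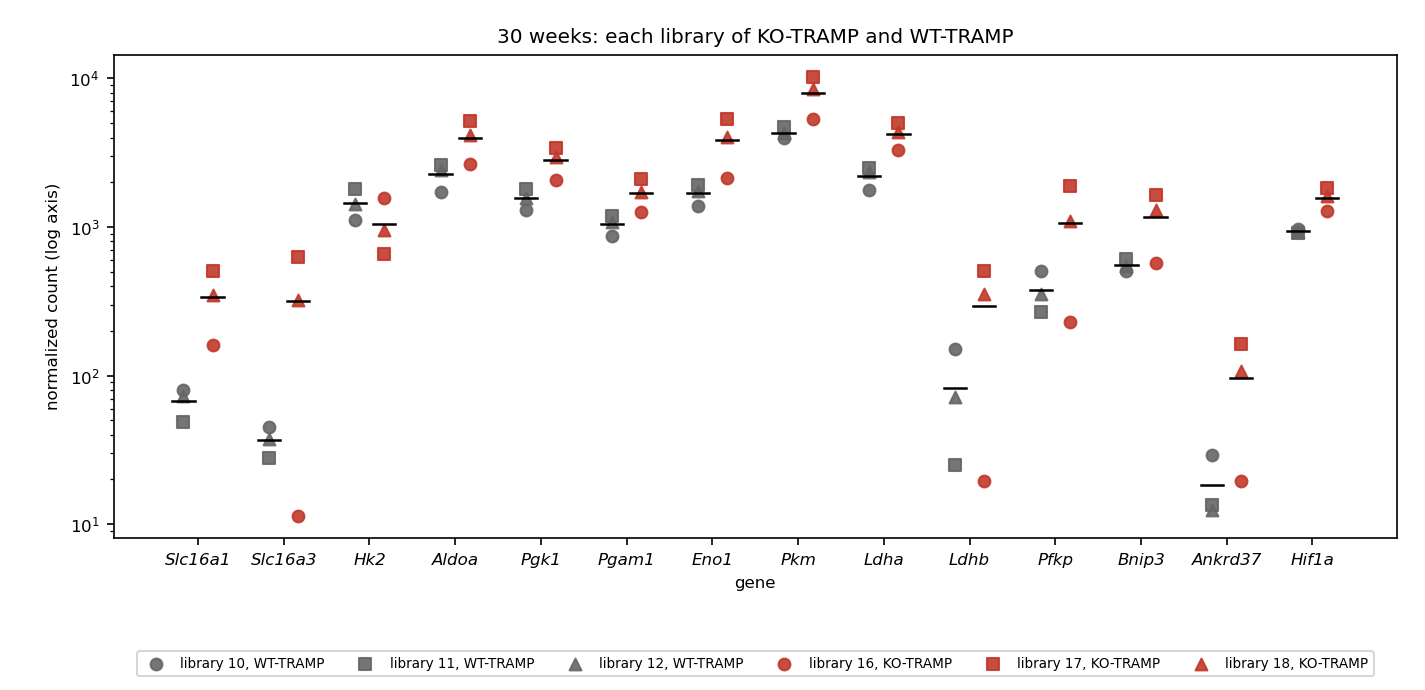
Normalized counts on a log axis for 14 members in the 3 WT-TRAMP (grey) and 3 KO-TRAMP (red) libraries of 30 weeks, with a marker shape per library and a black line at each group mean. Library 17 (red square) is highest for all of these genes but Hk2, where it is lowest, and library 16 (red circle) lies below all WT-TRAMP libraries for Slc16a3, Ldhb and Pfkp.

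Other members were above the WT-TRAMP range only in libraries 17 and 18, and were picked here after their values were seen. Slc16a3 encodes MCT4, the lactate exporter of glycolytic cells. It had 11.3 normalized counts in library 16, 626 in library 17 and 323 in library 18, compared with 44.8, 27.8 and 37.6 in WT-TRAMP. Pfkp, the platelet-type phosphofructokinase, had 228, 1890 and 1092 in KO-TRAMP and 509, 269 and 356 in WT-TRAMP. Ankrd37, a small ankyrin-repeat gene induced by HIF-1, had 19.5, 163 and 108 in KO-TRAMP and 29.1, 13.4 and 12.5 in WT-TRAMP. Bnip3, which promotes removal of mitochondria, had 572, 1633 and 1300 in KO-TRAMP and 509, 609 and 543 in WT-TRAMP. None of these 4 passed, with limma adjusted p from 0.368 to 0.527. Bnip3 shares 46.7% of its 31-base words with the gene AC160336.1. Hk2 went the other way, with 1561, 655 and 948 in KO-TRAMP and 1111, 1802 and 1432 in WT-TRAMP.

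Leaving out library 16 therefore changed the comparison. With libraries 17 and 18 against the 3 WT-TRAMP libraries, 15 of 31 members were higher at an adjusted p under 0.05 in limma (11.2% of all genes were) and 1 was lower (6.86%). The 15 were Slc16a1, Slc16a3, Pfkp, Aldoa, Aldoc, Tpi1, Pgk1, Pgam1, Eno1, Pkm, Ldha, Pdk1, Bnip3, Ankrd37 and Hif1a, and the lower one was Pfkfb4. The median log2 fold change was then 1.04, with 3.60 for Slc16a3, 2.89 for Ankrd37, 2.66 for Slc16a1 and 1.97 for Pfkp. The calls without library 16 count libraries 17 and 18 as separate samples, which was not tested. Leaving out library 17 instead left 0 members called and a median of 0.45, and the log2 fold change of Slc16a3 was 0.77. Without libraries 12 and 18 no member passed in limma, edgeR (0.00% of genes) or DESeq2 (0.420%), so the 8 calls of DESeq2 were lost. The limma median was then 0.64, with 2.18 for Slc16a1, 0.96 for Ldha and 0.70 for Hif1a. In these 2 against 2 libraries 12 members were higher without overlap (2532 of all 16889 genes were) and 1 lower (13.9%). Without the WT-TRAMP libraries 10 and 12, which held 43537 and 19006 seminal vesicle RPM, no member passed and the median was 0.60.

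Cell markers were also summed, and neuroendocrine and proliferation genes split library 16 from libraries 17 and 18, as Slc16a3 and Pfkp did. The 10 neuroendocrine genes summed to 26.7, 1956 and 1215 RPM in libraries 16, 17 and 18, and 9 of the 10 had a higher mean in KO-TRAMP, none without overlap. The 10 proliferation genes summed to 722, 2932 and 2009 in these libraries and to 756 to 1390 in WT-TRAMP. The 10 fibroblast genes were higher in all 3 KO-TRAMP libraries, library 16 included, at 1703 to 2005 RPM compared with 393 to 454 (9 of 10 genes without overlap). The 10 macrophage genes summed to 357 to 408 compared with 138 to 168 (7 of 10 without overlap), and 10 endothelial genes to 78.7 to 138 compared with 49.4 to 58.1 (8 of 10). The 10 adipocyte genes were lower, at 54.9 to 91.2 compared with 98.2 to 192 (7 of 10 without overlap). The 10 luminal secretory genes summed to 2586 to 3000 compared with 2407 to 2827, with 1 gene higher and 3 lower without overlap. The 10 skeletal muscle genes summed to 52.1 to 102 compared with 37.0 to 61.4 (4 of 10 higher without overlap). The 5 erythrocyte genes summed to 24.4 to 54.1 compared with 15.3 to 16.6 (1 of 5). No gene of these lists was at 0 in every library. Their part in the members' values was not tested.

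**Figure D3:**
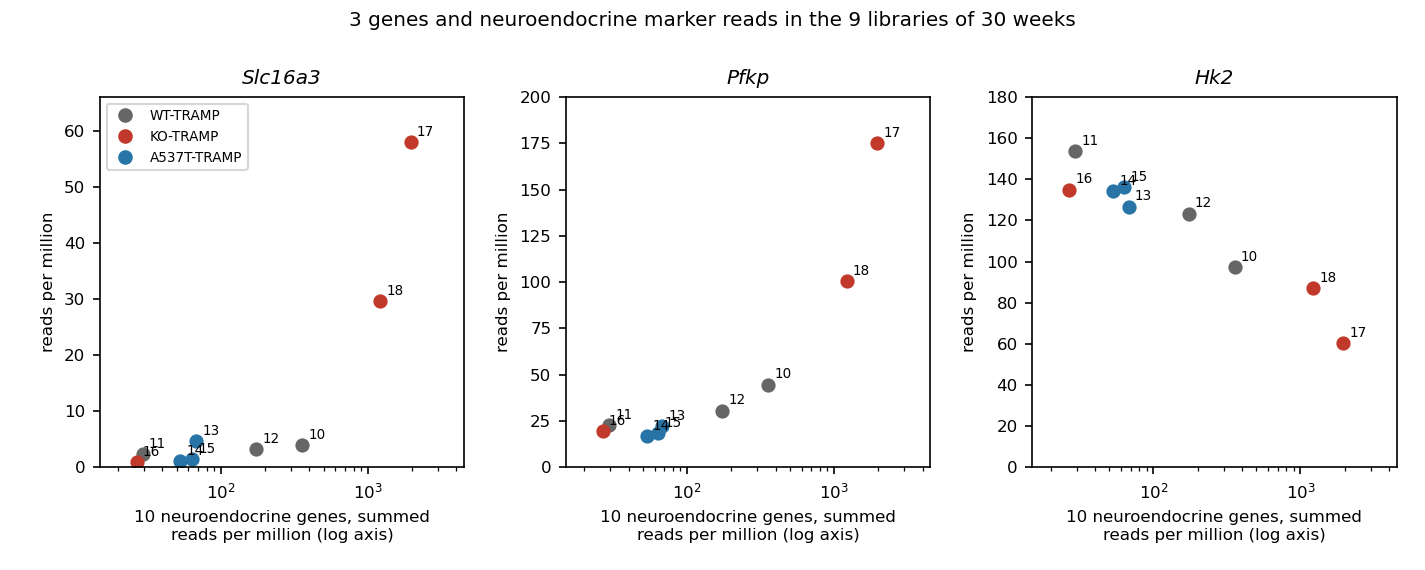
RPM of Slc16a3, Pfkp and Hk2 against the summed RPM of 10 neuroendocrine genes (log axis) in the 9 libraries of 30 weeks, with the library number beside each point. Libraries 17 and 18 hold the highest neuroendocrine sums, the highest Slc16a3 and Pfkp and the lowest Hk2, while KO-TRAMP library 16 sits beside WT-TRAMP library 11.

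Of the 65 other genes of glycolysis, pyruvate use and the hypoxia response that were found, 58 were tested in KO-TRAMP at 30 weeks and none passed in limma. Without overlap, 16 (27.6%) were higher, compared with 10.8% of all genes, and 9 (15.5%) were lower, compared with 9.48%. Their median log2 fold change was 0.16, and the difference from the members was not tested. Loxl2, a collagen-crosslinking oxidase and hypoxia target, came nearest. It had 215, 161 and 157 normalized counts in KO-TRAMP libraries 16 to 18 and 50.4, 40.3 and 53.6 in WT-TRAMP, a log2 fold change of 1.86 (SE 0.22, adjusted p = 0.0501 by limma). All KO-TRAMP libraries lay above all WT-TRAMP libraries, as the summed fibroblast genes did, and their part was not tested. The log2 fold change of Loxl2 without libraries 12 and 18 was 2.02 (SE 0.35, adjusted p = 0.986 by limma).

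At 10 weeks KO-TRAMP differed little from WT-TRAMP. Of 30 members tested none was higher without overlap (5.77% of all genes were) and 1, Gpi1, was lower (6.26%), by 0.10 on the log2 scale. The median log2 fold change was −0.08, against −0.01 for all 15451 genes. limma called 0 members (0.0129% of genes), with 0 at an unadjusted p under 0.05 (6.64% of genes). edgeR (0.00%) and DESeq2 (0.524%) also called 0. Car9 and Adm, the vasodilator peptide gene, were below the minimum mean of 10.

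The members with the smallest p at 10 weeks in KO-TRAMP were Ndrg1, Bnip3 and Ldhb. Ndrg1 (ENSMUSG00000005125.13, chromosome 15, 66929318 to 66969640, minus strand, protein coding), a stress and differentiation gene induced by hypoxia and androgen, had 45.0, 104 and 68.9 normalized counts in libraries 7 to 9. WT-TRAMP libraries 1 to 3 had 35.0, 48.7 and 46.2, which overlapped with library 7, and the log2 fold change was 0.66 (SE 0.33, adjusted p = 0.764 by limma). Bnip3 (ENSMUSG00000078566.8, chromosome 7, 138890836 to 138909519, minus strand, protein coding) had 509, 386 and 463 in KO-TRAMP and 706, 559 and 472 in WT-TRAMP. Its log2 fold change was −0.34 (SE 0.17, adjusted p = 0.767 by limma). Ldhb (ENSMUSG00000030246.11, chromosome 6, 142490249 to 142507957, minus strand, protein coding) had 13.5, 41.1 and 46.8 in KO-TRAMP and 11.4, 16.2 and 20.9 in WT-TRAMP, a log2 fold change of 0.88 (SE 0.52, adjusted p = 0.8002 by limma). Ldhb shares 33.0% of its 31-base words with the copy Gm5514.

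In KO-TRAMP at 10 weeks the Ldhb values had the same order as the seminal vesicle reads. These reads were 9.06, 522 and 16282 RPM in libraries 7, 8 and 9 and 1.83 to 4.59 in WT-TRAMP. The highest Ldhb of the 18 libraries, 46.6 RPM, was in KO-TRAMP at 30 weeks, where the seminal vesicle reads reached at most 2656 RPM. Of the other pathway genes 0 of 57 passed. Stc2, a secreted glycoprotein gene induced by hypoxia, had the smallest p. It had 33.3, 32.3 and 35.8 normalized counts in KO-TRAMP and 114, 60.0 and 56.2 in WT-TRAMP, all KO-TRAMP libraries being below all WT-TRAMP libraries (log2 fold change −1.08, SE 0.31, adjusted p = 0.716 by limma).

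Whether the KO-TRAMP difference changed with age was tested as an interaction. The median of the members' differences between the 30-week and the 10-week log2 fold change was 0.66, against 0.00 over 16431 genes. limma called 0 of 31 members (0.00% of genes), and 13 had an unadjusted p under 0.05 (13.1% of genes). The smallest p was that of Hif1a (difference 0.91, SE 0.21, adjusted p = 0.212 by limma), followed by Ldha (1.19, SE 0.31, adjusted p = 0.232) and Slc16a1 (1.91, SE 0.53, adjusted p = 0.256). Without library 16, 15 members were called, all with a higher log2 fold change at 30 weeks than at 10 weeks. In that direction 6.89% of genes were called, and the members' median difference was 1.03. These calls, too, count libraries 17 and 18 as separate samples. With libraries 12 and 18 left out, limma called 0 members and the median was 0.62.

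The A537T-TRAMP comparison at 10 weeks rested on libraries with seminal vesicle reads. These were 487, 90508 and 12468 RPM in libraries 4, 5 and 6 and 1.83 to 4.59 in WT-TRAMP, and all 8 genes of that list were higher without overlap. The 10 smooth muscle genes were also higher without overlap, summing to 1163 to 2855 compared with 463 to 754 RPM. The 10 fibroblast genes summed to 492 to 644 compared with 278 to 417 RPM (5 of 10 higher without overlap), and the 10 endothelial genes to 29.1 to 65.0 compared with 17.3 to 25.7 (4 of 10). No gene of these 4 lists was at 0 in every library, and the part of the last 3 was not tested. No A537T-TRAMP library of 10 weeks lacked these reads, so these reads and the line cannot be told apart.

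Of 30 members tested, 4 were higher without overlap (6.92% of all genes were) and 0 lower (6.53%). The 4 were Ldhb, Ndrg1, Pfkfb3 and Pfkfb4. limma called 0 members (0.00648% of genes), with 2 at an unadjusted p under 0.05 (7.89% of genes). edgeR also called 0 (0.00%) and DESeq2 called 1 (0.959%), which was Ldhb. The members' median log2 fold change was 0.01 and that of all 15438 genes −0.01.

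Ldhb had 23.6, 300 and 177 normalized counts in libraries 4, 5 and 6 of A537T-TRAMP and 9.64, 13.8 and 17.2 in WT-TRAMP libraries 1 to 3. The libraries with the most seminal vesicle reads had the most Ldhb, and all 3 lay above WT-TRAMP. The log2 fold change was 2.95 (SE 0.87, adjusted p = 0.600 by limma), and 4.02 (adjusted p = 0.0270) without library 4, a fit in which 0.420% of genes passed. Ndrg1 had 51.3, 107 and 81.4 in A537T-TRAMP and 29.7, 42.6 and 39.4 in WT-TRAMP, without overlap, for a log2 fold change of 1.04 (SE 0.33, adjusted p = 0.600 by limma). Slc2a3 (ENSMUSG00000003153.10, chromosome 6, 122727809 to 122801640, minus strand, protein coding), the high-affinity glucose carrier GLUT3, had 58.6, 91.7 and 96.3 in A537T-TRAMP. WT-TRAMP had 12.0, 47.2 and 59.6, which overlapped, and the log2 fold change was 1.27 (SE 0.58, adjusted p = 0.600 by limma).

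The abundant enzymes were not higher in A537T-TRAMP at 10 weeks. Of the 15 enzymes 11 had a log2 fold change below 0, with a median of −0.19, and none of these 11 was lower without overlap. Epas1, which encodes the HIF-2α subunit abundant in endothelium, was chosen after its values were seen. It had 121, 659 and 315 normalized counts in libraries 4, 5 and 6 and 138, 151 and 112 in WT-TRAMP, the highest again in library 5. The endothelial genes were higher in the same comparison, as given above. Of the other pathway genes 0 of 56 passed. Ppp1r3c, a glycogen-targeting phosphatase subunit, had the smallest p, with 155, 164 and 131 in A537T-TRAMP and 90.0, 92.1 and 106 in WT-TRAMP (log2 fold change 0.63, SE 0.18, adjusted p = 0.600 by limma).

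**Figure D4:**
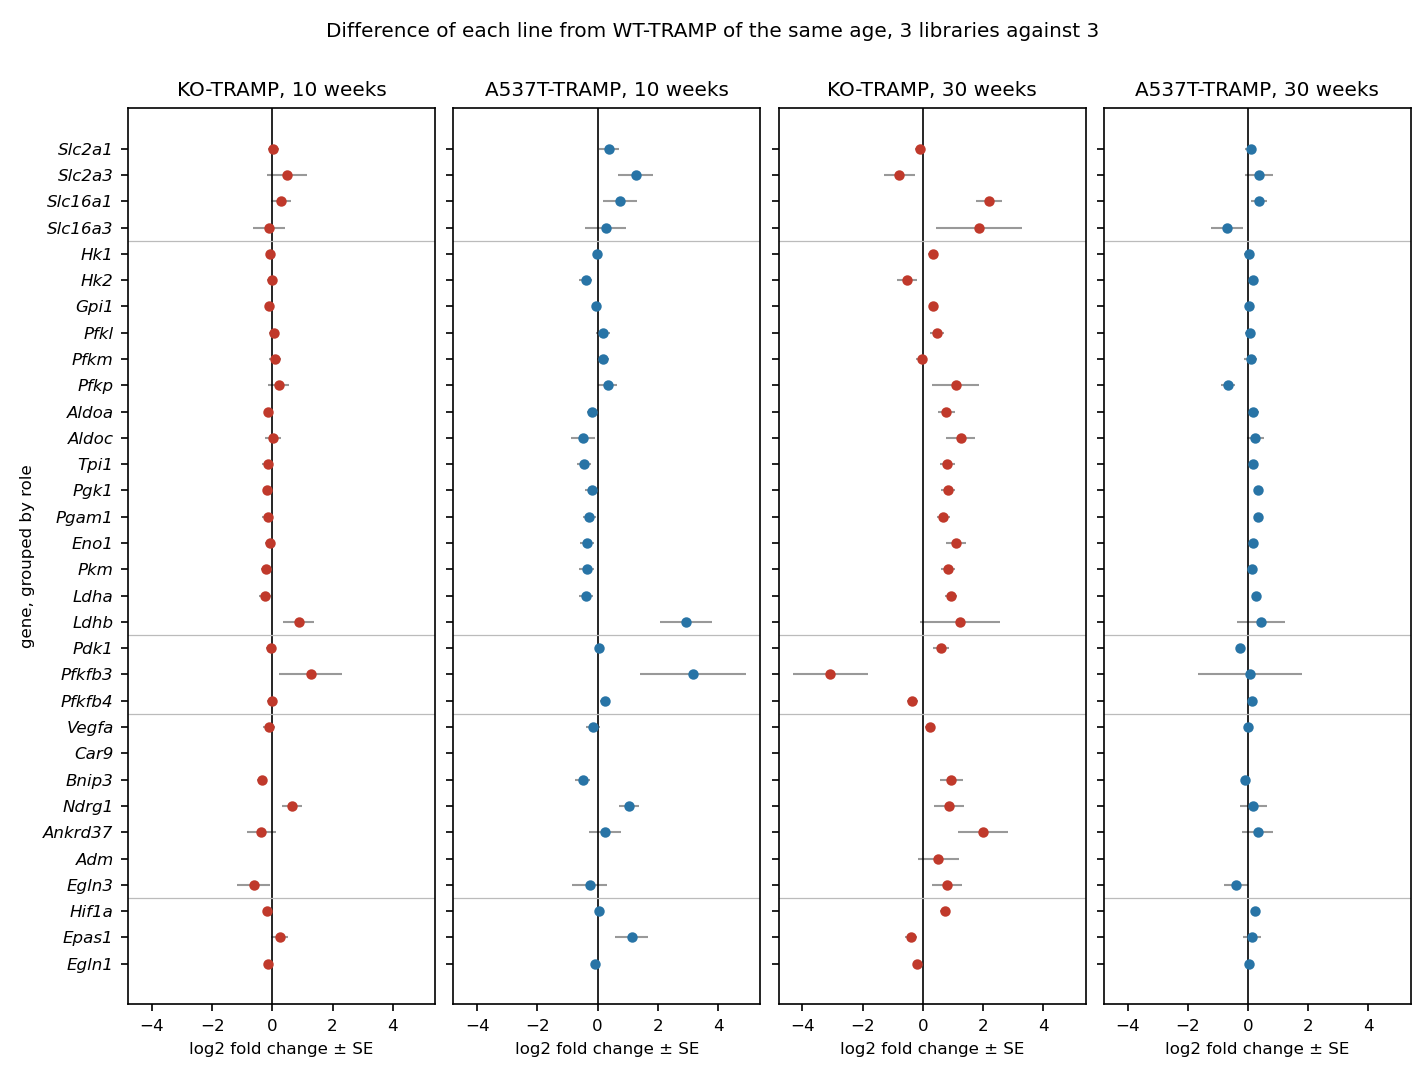
Log2 fold change with its standard error for each member in the 4 comparisons with WT-TRAMP of the same age, 3 libraries against 3, grouped by role with missing points for genes below the minimum mean. Most enzymes sit right of 0 in KO-TRAMP at 30 weeks and close to 0 elsewhere, and the widest error bars belong to Pfkfb3.

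At 30 weeks the members of A537T-TRAMP were close to WT-TRAMP. Of 30 tested, 2 were higher without overlap (7.36% of all genes were), namely Pgam1 and Hif1a, and 1 was lower (6.03%), namely Pdk1, the kinase that holds pyruvate back from mitochondria. limma called 0 members (0.00% of genes), with 3 at an unadjusted p under 0.05 (7.21% of genes), and edgeR (0.00%) and DESeq2 (1.01%) also called 0. The median log2 fold change was 0.13 and that of all 16261 genes 0.00. Of the members 24 lay above 0 and 6 below. Without libraries 12 and 15 the median was 0.09 and no member passed in limma, edgeR (0.00% of genes) or DESeq2 (0.147%), with 3 higher (13.6% of all genes) and 2 lower (12.6%) without overlap.

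Pfkp (ENSMUSG00000021196.14, chromosome 13, 6579768 to 6648777, minus strand, protein coding) had 256, 192 and 203 normalized counts in libraries 13 to 15 of A537T-TRAMP and 477, 250 and 331 in WT-TRAMP libraries 10 to 12. The highest A537T-TRAMP library lay within the WT-TRAMP range, and the log2 fold change was −0.66 (SE 0.24, adjusted p = 0.684 by limma). Pgam1 (ENSMUSG00000011752.7, chromosome 19, 41911923 to 41918660, plus strand, protein coding), the phosphoglycerate mutase gene, had 1219, 1154 and 1329 in A537T-TRAMP and 824, 1111 and 1016 in WT-TRAMP. The log2 fold change was 0.34 (SE 0.13, adjusted p = 0.684 by limma). Pgk1 (ENSMUSG00000062070.12, chromosome X, 106187100 to 106203699, plus strand, protein coding) had 1871, 1612 and 1857 in A537T-TRAMP and 1192, 1661 and 1438 in WT-TRAMP, with overlap (log2 fold change 0.33, SE 0.14, adjusted p = 0.691 by limma).

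Hif1a, chosen here after its values were seen, had 1016, 908 and 1110 normalized counts in A537T-TRAMP at 30 weeks and 896, 839 and 857 in WT-TRAMP. The log2 fold change was 0.22 (SE 0.10, adjusted p = 0.703 by limma). In the KO-TRAMP table the value of the same gene was 0.73, and both rest on the same 3 WT-TRAMP libraries. Of the other pathway genes 0 of 57 passed. Pdk4, a relative of Pdk1 that rises in fasting, had the smallest p, with 40.1, 39.4 and 30.9 in A537T-TRAMP and 101, 155 and 99.2 in WT-TRAMP (log2 fold change −1.64, SE 0.25, adjusted p = 0.214 by limma). Without libraries 12 and 15 it was −1.63 (SE 0.33). The adipocyte genes ran the same way, at 47.8 to 63.8 RPM compared with up to 194, and lower without overlap for 9 of 10 genes, and their part was not tested.

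The interaction of age with A537T gave a median difference of 0.06 over 30 members and 0.01 over 15941 genes. limma called 0 members (0.00% of genes), with 3 of 30 at an unadjusted p under 0.05 (6.36% of genes). These were Pfkp (difference −0.996, SE 0.43), Ldha (0.66, SE 0.29) and Pgam1 (0.60, SE 0.27), each with a limma adjusted p = 0.721. With libraries 12 and 15 left out, limma called 0 members and the median difference was 0.00.

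Pfkfb3 (ENSMUSG00000026773.19, chromosome 2, 11471433 to 11554077, minus strand, protein coding) was taken up after its values were seen, because it varied more than any other member over the 18 libraries among those read in every library. Its product makes fructose 2,6-bisphosphate, the strongest activator of phosphofructokinase. At 10 weeks it had 61.1, 121 and 1641 normalized counts in KO-TRAMP libraries 7 to 9 and 139, 80.0 and 77.1 in WT-TRAMP, and A537T-TRAMP libraries 4 to 6 had 146, 19960 and 148 in their own table. At 30 weeks WT-TRAMP libraries 10 to 12 had 6692, 203 and 3214 and KO-TRAMP libraries 16 to 18 had 151, 276 and 175. A537T-TRAMP libraries 13 to 15 had 6108, 128 and 3635. The groups overlapped or rested on 1 library in each table. The limma log2 fold change in KO-TRAMP at 30 weeks was −3.07 (SE 1.25, adjusted p = 0.368), −4.08 in DESeq2 (adjusted p = 0.0133), −0.07 without WT-TRAMP libraries 10 and 12, and −2.51 without libraries 12 and 18.

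The libraries with high Pfkfb3 were those with many seminal vesicle reads. Libraries 5, 9, 10, 12, 13 and 15 held 16282 to 90508 seminal vesicle RPM and 1641 to 19960 normalized counts of Pfkfb3. The exception was library 6, with 12468 RPM and 148 normalized counts. Every other library held at most 2656 such RPM. Pfkfb4, chosen for comparison after its values were seen, had no such split. It had 462 normalized counts in library 9, just below the 465 to 632 of the other libraries of that table, and 549 in library 5, within the 401 to 599 of its table. The methods state that seminal vesicles were removed at dissection, and the part of that tissue in the Pfkfb3 values was not tested.

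**Figure D5:**
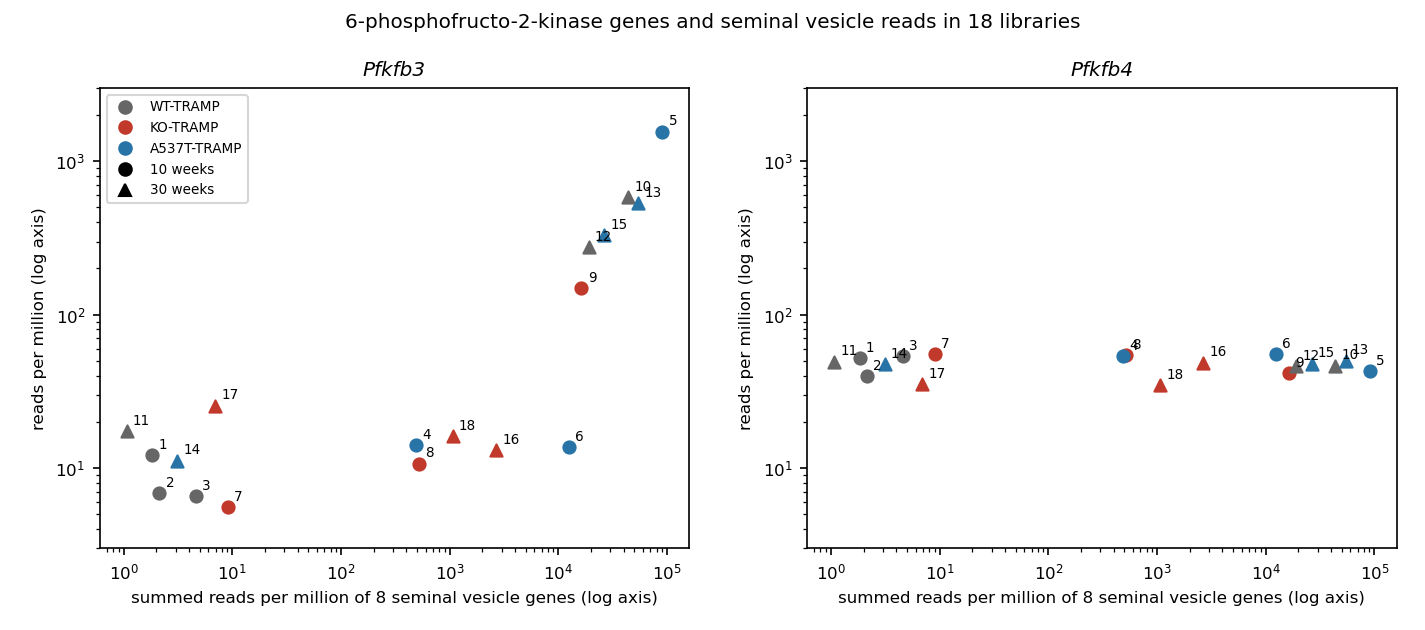
RPM of Pfkfb3 (left) and Pfkfb4 (right) against the summed RPM of 8 seminal vesicle genes in the 18 libraries, both axes logarithmic, with colour for the line, circles for 10 weeks and triangles for 30 weeks. Pfkfb3 reaches 1562 in library 5 and stays at 25.5 or below in libraries with at most 2656 seminal vesicle RPM and in library 6, while Pfkfb4 stays between 34.6 and 55.4.

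Glycolysis is also set by which of several related genes supplies a step, so the share of each isozyme was computed per exon length. Over 32 tests, exact two-sided permutation of 3 against 3 libraries, which cannot go below 0.1, gave p = 0.1 for 2 shares, and the adjusted p was 0.985 for both. Ldhb made up 2.30%, 30.1% and 21.5% of lactate dehydrogenase reads in A537T-TRAMP libraries 4 to 6, compared with 1.42% ± 0.709 (SD, n = 3) in WT-TRAMP at 10 weeks. Pfkp made up 9.31% ± 0.687 of phosphofructokinase reads in A537T-TRAMP at 30 weeks and 14.9% ± 5.30 in WT-TRAMP.

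In KO-TRAMP at 30 weeks the shares of Hk2, Pfkp and Slc16a3 were chosen after their values were seen, because library 16 differed in them from libraries 17 and 18. Hk2 made up 69.1% of hexokinase reads (Hk1 and Hk2) in library 16, 42.4% in library 17 and 55.1% in library 18, compared with 69.5% ± 3.28 (SD, n = 3) in WT-TRAMP, and the exact p was 0.2. Pfkp made up 9.91%, 37.3% and 29.3% of phosphofructokinase reads, compared with 15.2% ± 5.37 (exact p = 0.4). Slc16a3 made up 5.51%, 50.8% and 43.4% of the reads of both lactate carriers, compared with 31.4% ± 1.16 (exact p = 1.0). For Hk2, library 16 lay within the WT-TRAMP range and libraries 17 and 18 below it. For Pfkp and Slc16a3, library 16 lay below and libraries 17 and 18 above the WT-TRAMP range. The shares of Pfkl (59.3%, 46.1% and 51.0% of phosphofructokinase reads) lay within the WT-TRAMP range in all 3 KO-TRAMP libraries. Pfkm and Ldhb, also chosen after their values were seen, set library 16 apart as well. Pfkm made up 30.8%, 16.6% and 19.7%, below the WT-TRAMP range in libraries 17 and 18. Ldhb made up 1.23%, 17.5% and 14.6% of lactate dehydrogenase reads. The mean share in KO-TRAMP minus that in WT-TRAMP was −13.9 percentage points for Hk2, 10.3 for Pfkp and 1.87 for Slc16a3, and −12.3, 7.46 and −3.86 without libraries 12 and 18.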

How the data were processed

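RNA-seq was analysed from 4 deposited tables of normalized counts, 1 per mutant line and age, each with 6 libraries. Per the labels and the methods, the authors trimmed reads with Trim Galore 0.4.1 and cutadapt 1.18, aligned them with STAR 2.7.3a to GRCm38.p6, quantified genes with Salmon and scaled them with DESeq2 1.26. The deposited values are a signal, an estimated read count divided by a size factor per library. In each library every value divided by the smallest step gave a whole number (tolerance 0.001), so whole reads were recovered. Tables were scaled separately, and 30.9% to 37.6% of genes in a WT-TRAMP library had identical reads in both of its tables, so values were compared within a table. Tables of the authors' own comparisons (fold changes and s-values) were not used.

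Groups came from the labels. The 3 columns found in both tables of an age were taken as WT-TRAMP. The labels do not say that libraries of a group came from separate mice, although the methods imply it, and p-values measure the spread between libraries.

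The main test was limma 3.58.1 under R 4.3.3, with a mean-variance trend, applied to log2(normalized count + 1), for genes with a mean of at least 10, with two-sided p-values and Benjamini-Hochberg adjustment over all genes at 0.05. These fold changes understate changes of low genes. The interaction used 12 libraries with an intercept per table. Alternatives were edgeR 4.0.16, DESeq2 1.42.0, TMM scaling, other pseudocounts, no filter and leaving out each library. The limma fit of each table was tested on simulated data. Symbols, positions and exon lengths came from GENCODE M21, a release earlier than the authors' own, and promoter sequences from RefSeq (GRCm38.p6, 29 of 32 members matched). Reads per kilobase use the union of exons. Shared sequence was measured in words of 31 bases.

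The members, lists, rules and tests were chosen with earlier results of these data known. All 32 members are named, and those without values per library enter the counts and medians where they were tested. Values per library are given for members that pass in any comparison and for the 3 with the smallest p in each comparison, and of the other pathway genes for those that pass or else the 1 with the smallest p. Genes given values per library beyond this rule are marked as chosen after their values were seen.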

Additional observations from a re-analysis of the deposited data

How the results depend on the processing

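The number of members called in KO-TRAMP at 30 weeks was 0 in the main analysis and rose to 1 in the fit over 12 libraries (Slc16a1) and to 8 in DESeq2. Leaving out each library gave 0 to 16, the 16 without library 16, and medians of 0.45 to 1.04. For the interaction in KO-TRAMP it gave 0 to 15 members and medians of 0.44 to 1.03. The calls without library 16 count libraries 17 and 18 as separate samples, although shared RNA was not tested. In A537T-TRAMP at 10 weeks DESeq2 called 1 member (Ldhb) and leaving out libraries gave 0 to 1, with medians of −0.09 to 0.10. In KO-TRAMP at 10 weeks (medians −0.14 to 0.01), A537T-TRAMP at 30 weeks (0.06 to 0.26) and the A537T interaction (−0.11 to 0.15) no alternative called a member. Medians under the other pseudocounts, without the filter, with TMM, edgeR and DESeq2 moved by less than the spread between libraries. The Pfkp share difference in A537T-TRAMP at 30 weeks was −5.62 percentage points per exon length and −9.65 without lengths. Reads that are not divided by exon length give longer genes more weight. The cause of the share difference itself was not tested. The fits without libraries 10 and 12, 12 and 18, or 12 and 15, also in edgeR, DESeq2 and the interactions for the last 2, were chosen after seeing the data and called 0 members. The first leaves 1 WT-TRAMP library, which is assumed to vary like the KO-TRAMP libraries. No paired analysis was possible because the columns carry no replicate numbers. Car9 and Adm had too few reads to test in most tables.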
